A study of Homo sapiens with 14 samples.

Results

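NOTCH1, NOTCH2, NOTCH3, JAG1, JAG2 and HES1 are 3 receptors, 2 ligands and 1 target gene of the Notch pathway. They were chosen by symbol, all 6 are rows of the deposited expression table of 13734 genes, and they are described here in all 14 RNA-seq libraries. The cells were MDA-MB-231, a human breast cancer line, grown in DMEM:F12 with 10% FBS. The 7 groups of 2 libraries were control siRNA; YAP/TAZ siRNA mix 1 and YAP/TAZ siRNA mix 2, each harvested 48 h after transfection; BRD siRNA mix A and BRD siRNA mix B, each harvested at 72 h; DMSO; and JQ1 at 1 µM for 24 h. YAP and TAZ are co-activators controlled by the Hippo pathway, the BRD genes targeted encode BET bromodomain proteins that bind acetylated chromatin, and JQ1 is a compound that blocks this binding. The labels give no siRNA sequences and no time for the control siRNA or DMSO libraries, and they do not say whether replicates were separate cultures. A limma p-value here is set against the spread within such pairs of libraries, pooled over the 7 groups and moderated across genes. That spread may be technical. The series asks what BET proteins contribute to transcription that depends on YAP and TAZ.

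In Notch signalling, a ligand of the Jagged or Delta type on one cell pulls on a Notch receptor of its neighbour. The receptor is then cut by an ADAM protease and by γ-secretase, and its intracellular part moves to the nucleus, where it joins the DNA-binding protein RBPJ and a Mastermind co-activator. HES1, a transcriptional repressor of the basic helix-loop-helix type, is the best known direct target, and it also represses its own gene. In breast cancer the pathway is known for roles in stem-like cells and in contacts with endothelium and bone, and JAG1 has been described as a YAP/TAZ target in other tissues.

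Receptor cleavage and Notch activity were not measured in these libraries. The promoter of HES1 is shown because HES1 was chosen as the target gene among the 6 and differed most between the BRD siRNA mixes. The 250 bases before its RefSeq start lie at chr3:194135898-194136147 (GRCh38.p14, plus strand). The capitals mark matches to the RBPJ core TGGGAA and to the HES N-box CACNAG, and positions are counted back from the start.
HES1: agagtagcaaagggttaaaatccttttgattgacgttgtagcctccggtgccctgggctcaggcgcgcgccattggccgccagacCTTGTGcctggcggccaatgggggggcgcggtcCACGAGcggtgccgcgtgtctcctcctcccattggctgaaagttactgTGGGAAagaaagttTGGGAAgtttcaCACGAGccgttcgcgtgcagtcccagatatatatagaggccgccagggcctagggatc
The RBPJ core occurs at -84 to -79 and again at -70 to -65, both on the plus strand. N-boxes occur at -165 to -160 (minus strand), -132 to -127 and -58 to -53, and none of these matches overlaps another. Both strands were searched in the same 250 bases of 35116 RefSeq promoters, of which 20.8% hold the RBPJ core and 32% an N-box (CACNAG). All 6 genes matched an entry, and HES1 was the only one of them with an RBPJ core, while NOTCH3 had 1 N-box. None of the 6 held the TEAD core GGAATG (11.9% of promoters) or the AP-1 motif TGANTCA (6.57% of promoters). Such matches describe letters, not bound sites.

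Depth ran from 15741695 to 37311326 gene reads per library, with a median of 23539829. Values are scaled RPM, reads relative to a library size that was rescaled before deposit. A log2 fold change is a difference in log2(value + 1), so for weakly expressed genes it is smaller than the true change. The siRNA targets were lower where the labels say, YAP1 by -2.91 and -3.13 BRD3 by -1.57 and -1.59, and BRD2 by only -0.41 and -0.65, on the log2 scale with the 2 mixes against them. Of 7 markers expected in this line, 6 were in the table, with VIM at 3418 ± 136 (SD, n = 2) in control siRNA. Over both YAP/TAZ mixes AXL (1450 to 536), CAV1 (751 to 367) and CD44 (154 to 118) fell, MSN rose (636 to 799), and VIM and EGFR did not pass. CD44 and MSN passed with mix 2 alone but not with mix 1. With BRD siRNA CAV1 fell (to 313), CD44, AXL, MSN and EGFR rose, and VIM did not pass. JQ1 raised VIM, AXL and EGFR over DMSO and lowered CD44, CAV1 and MSN. Of 7 markers expected to be low or absent, ESR1, PGR and CDH1 are not rows, and KRT19, which stood at 273 ± 13.3, went against the expectation. KRT19 also moved with the treatments, to 899.5 and 701 with YAP/TAZ mixes 1 and 2, and from 205 in DMSO to 1787 with JQ1. The sum of the 4 markers of that list in the table went from 273.5 and 281 in DMSO to 1983 and 1799 with JQ1, mostly through KRT19. Of the others, ERBB2 rose from DMSO to JQ1 (51.6 to 96.5), EPCAM fell (18.4 to 6.94) and GATA3 did not pass (1.81 to 1.28). Of 16 markers of endothelium, leukocytes, and fibroblasts with mural cells, 7 were rows. Of these, PECAM1, CD14, LYZ and PDGFRB are among the genes that define such cells. PTPRC, CDH5 and DCN are not rows and were not analysed here. The summed leukocyte markers (2 of 5 in the table) were at 6.45 and 7.28 in control siRNA and 26.4 to 30.0 with YAP/TAZ siRNA, the endothelial ones (2 of 5) at 1.865 and 2.47 against 5.99 to 14.4, and the fibroblast and mural ones (3 of 6) at 9.17 and 12.3 against 26.9 to 32.2. The endothelial rise was in PECAM1 (1.88 to 10.1 over both mixes), while DLL4 did not pass (0.284 to 0.260). Among the fibroblast and mural markers COL1A1 and PDGFRB rose. ACTA2 did not pass over both mixes (1.04 to 1.52), though it did with mix 2 alone. The part of these markers in the changes with YAP/TAZ siRNA, BRD siRNA and JQ1 below was not tested. In bulk RNA, fewer cells of a type and less RNA per cell cannot be told apart.

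JAG1 and NOTCH2 were the leading ligand and receptor in these cells. Per kilobase of exon (GENCODE v29 exon lengths, all annotated isoforms merged), the control siRNA level was 41.3 scaled RPM for JAG1, 18.5 for NOTCH2, 10.9 for HES1, 2.47 for NOTCH1, 0.333 for JAG2 and 0.00924 for NOTCH3. NOTCH3 rested on 1 to 25 reads per library and NOTCH1, JAG2 and HES1 on at least 448, 36 and 69 reads. The sources used here do not give the authors' annotation or its lengths, so the per-length order is approximate.

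**Figure D1:**
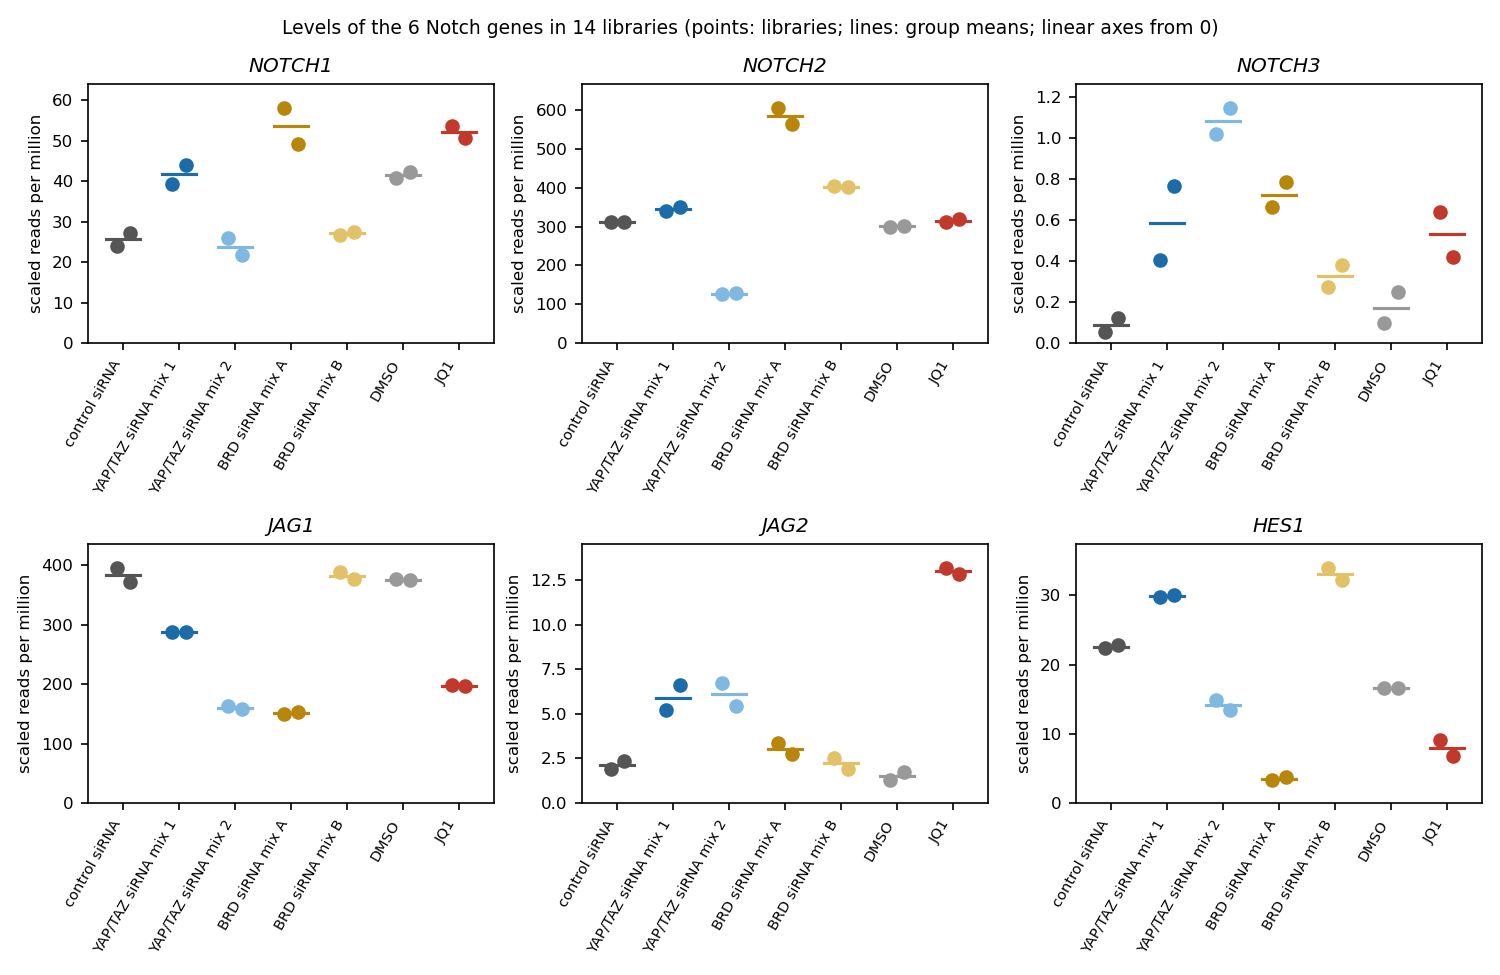
Level of each of the 6 genes in every library, in scaled RPM on linear axes that start at 0, with 1 panel per gene, points for libraries, lines for the means of 2 and columns for the 7 groups. JAG2 stands highest with JQ1 (12.9 and 13.2), NOTCH2 lowest with YAP/TAZ siRNA mix 2 (125 and 129.5), and HES1 lowest with BRD siRNA mix A (3.27 and 3.74).

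NOTCH2, the most abundant of the 3 receptor transcripts, answered differently to each siRNA mix and did not pass the test with JQ1. It was at 311 and 311 scaled RPM in the control siRNA libraries, 341 and 351 with YAP/TAZ mix 1, and 125 and 129.5 with YAP/TAZ mix 2. With BRD mix A it was at 605 and 564 and with BRD mix B at 404 and 401. The DMSO libraries had 300.1 and 302, and the JQ1 libraries 312 and 318. Both mix 2 libraries lie below every other library, and all 4 BRD siRNA libraries lie above the other 10. NOTCH2 fell with YAP/TAZ mix 2 (log2 fold change -1.28, SE 0.0519, limma adjusted p = 3.95e-15) and rose slightly with YAP/TAZ mix 1 (0.16, limma adjusted p = 0.0109). The fall of -0.56 for both YAP/TAZ mixes together (limma adjusted p = 3.01e-10) therefore came from mix 2 alone. NOTCH2 rose with BRD mix A (0.91, SE 0.0519, limma adjusted p = 1.89e-12) and with BRD mix B (0.37, limma adjusted p = 1.75e-06), and by 0.64 over both (limma adjusted p = 4.44e-11). After JQ1 the difference from DMSO was 0.07 (95% interval -0.04 to 0.17, limma adjusted p = 0.267), and it passed only with quantile normalization (0.17, limma adjusted p = 0.00959).

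NOTCH2NL, a partial copy of NOTCH2 in the human genome, can share its reads. The sources used here do not say how reads that fit both were counted, so both values carry that uncertainty. NOTCH2NL was at 48.0 ± 3.63 (SD, n = 2) in control siRNA and 32.8 ± 1.35 (n = 2) with YAP/TAZ mix 2, where it also fell (-0.53, limma adjusted p = 2.52e-05). With YAP/TAZ mix 1 it was at 48.1 ± 3.27 (n = 2), a change of 0.01 (limma adjusted p = 0.959).

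NOTCH1, the receptor best known from T cell leukaemia, fell into a low and a high set of groups. The low groups were control siRNA (23.9 and 27.3 scaled RPM), YAP/TAZ mix 2 (26.0 and 21.7) and BRD mix B (26.8 and 27.5). The high groups were DMSO (40.8 and 42.3), YAP/TAZ mix 1 (39.2 and 44.1), JQ1 (53.8 and 50.7) and BRD mix A (58.1 and 49.3). The 3 low groups overlap or touch in range, and no library of them reached the 8 libraries of the high groups. NOTCH1 rose with YAP/TAZ mix 1 (0.68, SE 0.0925, limma adjusted p = 1.12e-06) and BRD mix A (1.04, SE 0.0925, limma adjusted p = 2.24e-09). With YAP/TAZ mix 2 it differed from control siRNA by -0.10 (95% interval -0.29 to 0.09, limma adjusted p = 0.317) and with BRD mix B by 0.08 (-0.11 to 0.28, limma adjusted p = 0.43). JQ1 raised NOTCH1 over DMSO by 0.32 (SE 0.0925, limma adjusted p = 0.00376).

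The control matters for NOTCH1. It was higher in DMSO than in control siRNA by 0.68 (SE 0.0925, limma adjusted p = 3.42e-06), a size that 90.5% of all tested genes did not reach. The rise of 0.29 over both YAP/TAZ mixes (limma adjusted p = 0.00253) turned to -0.39 (limma adjusted p = 0.000134) with the DMSO libraries as the control. It also lost its call without control siRNA replicate 1 (0.20, limma adjusted p = 0.0782). The rise of 0.56 over both BRD mixes (limma adjusted p = 2.18e-06) became -0.12 (limma adjusted p = 0.176) against DMSO.

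NOTCH3, which is best known from vascular smooth muscle, was barely detected. The control siRNA libraries held 1 and 2 NOTCH3 reads, DMSO 3 and 9, YAP/TAZ mix 1 10 and 18, and YAP/TAZ mix 2 24 and 25. BRD mix A had 14 and 21 reads, BRD mix B 8 and 9, and JQ1 16 and 12. All 8 libraries with YAP/TAZ or BRD siRNA held more NOTCH3 reads than either control siRNA library, and both JQ1 libraries more than either DMSO library. The control siRNA libraries were the shallowest, at 18002737 and 15741695 gene reads, and both DMSO libraries also held more NOTCH3 reads than they did. Corrected for library size, the NOTCH3 ratio to control siRNA was 12.7 with YAP/TAZ mix 2 (95% exact interval 4.11 to 63.9) and 8.63 with BRD mix A (2.72 to 43.8). It was 6.85 with YAP/TAZ mix 1 (2.12 to 35.2) and 3.79 with BRD mix B (1.1 to 20.2), and JQ1 over DMSO gave 2.93 (1.44 to 6.32). DMSO over control siRNA gave 2.11 (0.57 to 11.7). These intervals cover counting error only.

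NOTCH3 passed the filter for testing, a value of at least 1 in 2 libraries, only through mix 2 (1.02 and 1.15 scaled RPM). Its test with YAP/TAZ siRNA (log2 fold change 0.74, limma adjusted p = 1.56e-05) was thus on a gene that had to be higher there. With both BRD mixes it rose by 0.48 (limma adjusted p = 0.00163), but with mix B alone it did not pass (0.29, limma adjusted p = 0.0776). It rose with JQ1 by 0.38 (limma adjusted p = 0.0202). The JQ1 call was lost without DMSO replicate 1 (0.29, limma adjusted p = 0.161), without JQ1 replicate 1 (0.28, limma adjusted p = 0.172) and with a pseudocount of 4 (0.12, limma adjusted p = 0.0525).

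JAG1, the Jagged ligand that these cells make in quantity, fell with 4 of the 5 perturbations. It was at 396 and 372 scaled RPM in control siRNA and 376 and 375 in DMSO. YAP/TAZ mix 1 gave 288 and 288, and YAP/TAZ mix 2 gave 163 and 158. BRD mix A gave 149.7 and 153, BRD mix B 388 and 376, and JQ1 199 and 196. The 2 kinds of control and BRD mix B form a high set from 372 to 396, and the 8 libraries of the other 4 groups all lie at or below 288. JAG1 fell by 0.41 on the log2 scale with YAP/TAZ mix 1 (SE 0.0511, limma adjusted p = 3.13e-07) and by 1.25 with mix 2 (limma adjusted p = 4.32e-15), and over both it fell by 0.83 (SE 0.0443, limma adjusted p = 3.53e-13). It fell by 0.92 with JQ1 (SE 0.0511, limma adjusted p = 9.48e-13), 1.90-fold by group means. It fell by 1.34 with BRD mix A (limma adjusted p = 3.13e-15) but differed from control siRNA by 0.00 with BRD mix B (95% interval -0.11 to 0.10, limma adjusted p = 0.938). The fall over both BRD mixes (-0.67, limma adjusted p = 1.64e-11) therefore rested on mix A. DMSO and control siRNA differed by -0.03 (95% interval -0.14 to 0.08, limma adjusted p = 0.634), although this difference passed with quantile normalization (-0.21) and with plain RPM scaling (-0.16).

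JAG2, the other Jagged ligand, went the other way from a low level. It was at 1.92 and 2.35 scaled RPM in control siRNA and 1.30 and 1.71 in DMSO. JQ1 brought it to 13.2 and 12.9, the highest in the series, on 329 and 366 reads. YAP/TAZ mix 1 gave 5.22 and 6.601 and YAP/TAZ mix 2 gave 6.75 and 5.46, while BRD mix A (3.37 and 2.73) lay just above control siRNA and BRD mix B (2.52 and 1.92) overlapped it. The JQ1 libraries stand apart from the other 12, and the 4 YAP/TAZ libraries overlap among themselves and lie above the remaining 8. JAG2 rose with JQ1 by 2.49 (SE 0.142, limma adjusted p = 1.65e-12), 8.66-fold by group means, and 98.7% of tested genes changed less in size. The size depended on the scale, from 1.63 with a pseudocount of 4 to 3.10 with edgeR on the recovered reads, with a call under every alternative run. JAG2 rose with YAP/TAZ mix 1 (1.14, limma adjusted p = 3.65e-07) and with mix 2 (1.18, limma adjusted p = 1.8e-07), and the mixes differed by -0.04 (95% interval -0.34 to 0.26, limma adjusted p = 0.811). With BRD siRNA the change of 0.20 did not pass (95% interval -0.06 to 0.46, limma adjusted p = 0.144), although it did with quantile normalization (0.38, limma adjusted p = 0.00654). Alone, mix A passed (0.37, limma adjusted p = 0.0252) and mix B did not (0.04, limma adjusted p = 0.833), and the difference between them (0.33) did not pass (limma adjusted p = 0.0581). Against DMSO the change over both BRD mixes was 0.53 (limma adjusted p = 0.00059).

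The balance of the Jagged ligands within a library needs no scaling between libraries. Per exon length, JAG1 exceeded JAG2 by a factor of 142 and 109 in control siRNA and of 199.6 and 151 in DMSO. With JQ1 the factor was 10.3 and 10.5, with YAP/TAZ mix 1 38.0 and 30.0, with YAP/TAZ mix 2 16.6 and 19.96, and with BRD mix A 30.6 and 38.5. BRD mix B, at 106 and 135, overlapped the control siRNA libraries. JAG1 thus remained the more abundant of the pair in every library. Among the receptors, NOTCH2 exceeded NOTCH1 by a factor that ran from 2.98 (YAP/TAZ mix 2 replicate 1) to 9.32 (BRD mix B replicate 1).

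**Figure D2:**
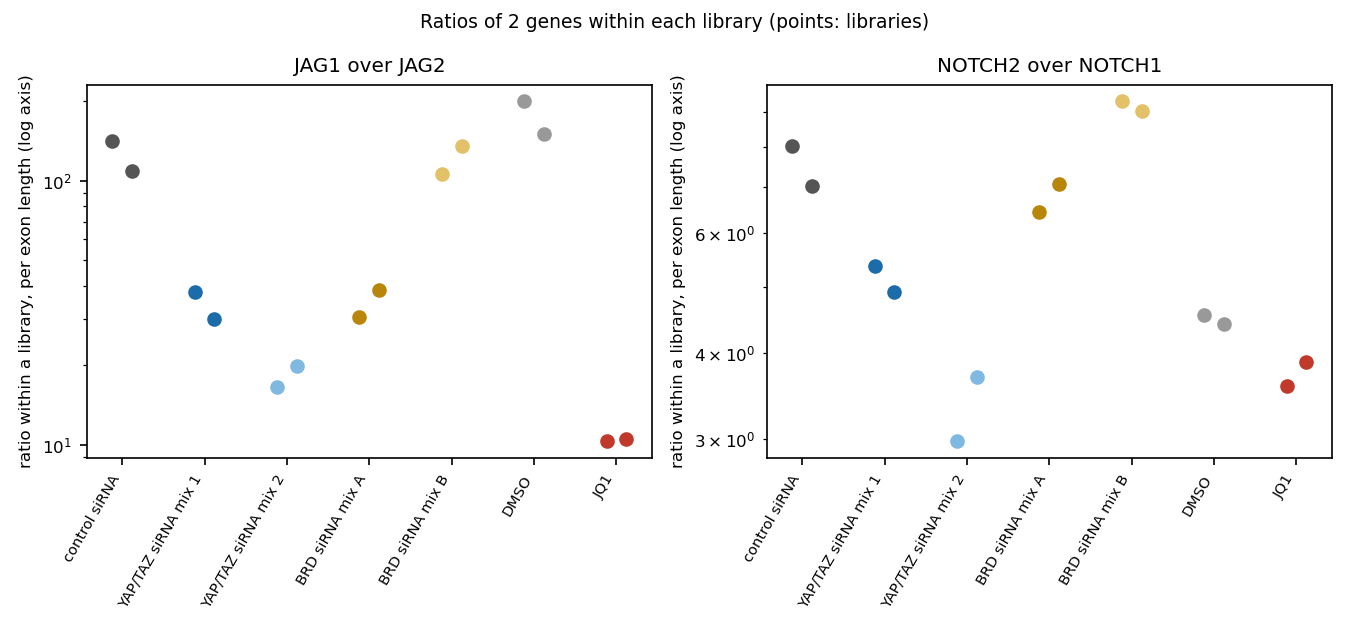
Ratio of JAG1 to JAG2 (left) and of NOTCH2 to NOTCH1 (right) within each library, per exon length, on log axes, with points for libraries in the 7 groups. The JAG1 to JAG2 ratio is lowest with JQ1 (10.3 and 10.5) and highest in DMSO (199.6 and 151), and BRD mix B overlaps control siRNA.

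HES1 moved in opposite directions with the 2 mixes of each siRNA target. It was at 22.3 and 22.8 scaled RPM in control siRNA and 16.6 and 16.6 in DMSO. YAP/TAZ mix 1 gave 29.8 and 30.0, and YAP/TAZ mix 2 gave 14.8 and 13.5. BRD mix A gave 3.27 and 3.74, BRD mix B 34.0 and 32.3, and JQ1 9.03 and 6.74. No 2 groups overlap for HES1, and the order from low to high was BRD mix A, JQ1, YAP/TAZ mix 2, DMSO, control siRNA, YAP/TAZ mix 1 and BRD mix B. HES1 rose with YAP/TAZ mix 1 (0.39, SE 0.105, limma adjusted p = 0.00215) and fell with YAP/TAZ mix 2 (-0.64, limma adjusted p = 1.19e-05). Averaged over both, its change of -0.12 did not pass (95% interval -0.31 to 0.07, limma adjusted p = 0.217), and against DMSO it was 0.30 (limma adjusted p = 0.00492). HES1 fell with BRD mix A (-2.39, SE 0.105, limma adjusted p = 2.87e-14), 6.44-fold by group means, and rose with BRD mix B (0.53, limma adjusted p = 0.000123). The mean of -0.93 over both BRD mixes (limma adjusted p = 8.67e-09) describes neither. With JQ1, HES1 fell by 0.9995 on the log2 scale (SE 0.105, limma adjusted p = 2.6e-08), 2.11-fold by group means, and it kept its call without each library in turn (-1.19 to -0.81). HES1 was lower in DMSO than in control siRNA (-0.42, limma adjusted p = 0.00202).

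**Figure D3:**
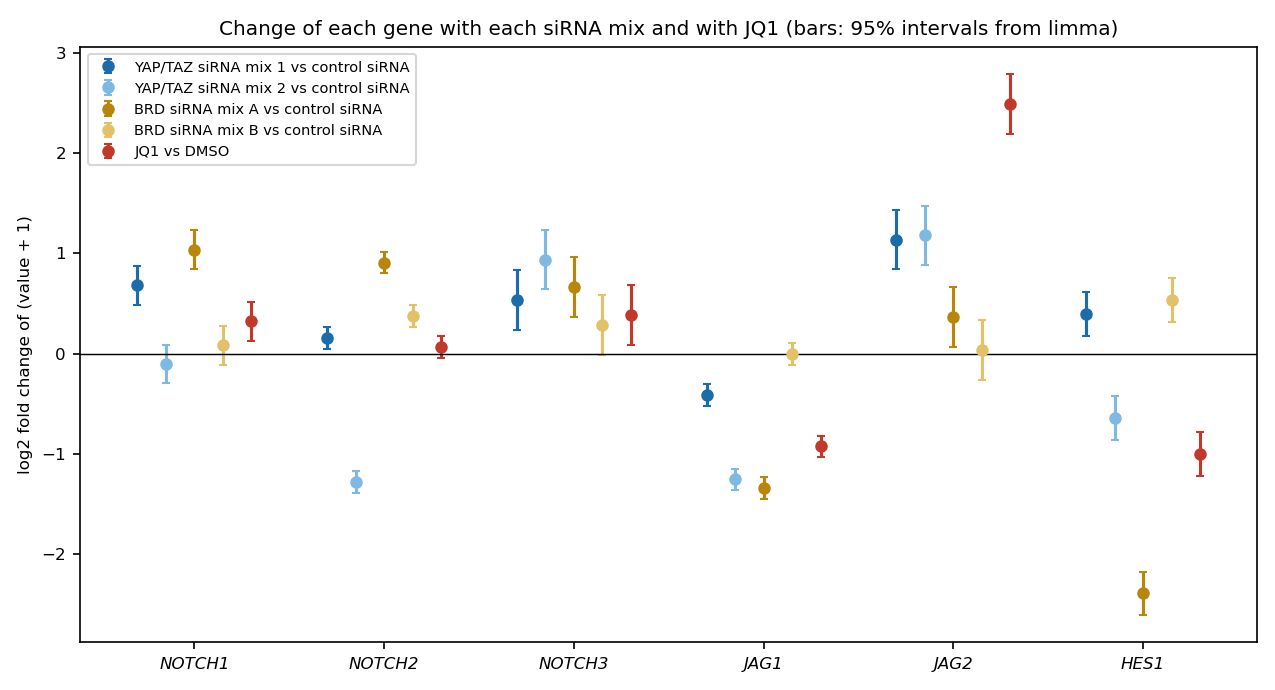
Log2 fold change of (value + 1) of each gene with each siRNA mix against control siRNA and with JQ1 against DMSO, with bars for 95% intervals from limma. HES1 lies on both sides of 0 for the mixes of each target (0.39 and -0.64 for YAP/TAZ, -2.39 and 0.53 for BRD), and JAG2 with JQ1 is highest at 2.49.

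With both mixes averaged, 5 of the 6 genes passed in each main comparison, 3 higher and 2 lower, but most genes of the table passed too. The share of the 13674 tested genes called was 78.9% for YAP/TAZ siRNA, 75.2% for BRD siRNA and 73.9% for JQ1, so the counts are near the background. By direction, 43.1% of genes were higher and 35.9% lower with YAP/TAZ siRNA, 37.6% and 37.6% with BRD siRNA, and 37.6% and 36.3% with JQ1. The 3 higher genes with YAP/TAZ siRNA include NOTCH3, which entered testing only through mix 2, so its call there is no support. The 4 siRNA comparisons share the 2 control siRNA libraries. With YAP/TAZ mix 1 alone all 6 genes passed, 5 higher and 1 lower (background 74.3%, with 40.6% higher and 33.6% lower), and with mix 2 alone 5 passed, 2 higher and 3 lower (78.4%, with 42.7% higher and 35.7% lower). The 2 higher genes with mix 2 again include NOTCH3, whose call there is no support. With BRD mix A alone all 6 passed, 4 higher and 2 lower (73.3%, with 37.2% higher and 36.1% lower), and with BRD mix B alone 2 passed, both higher (70.8%, with 35.3% higher and 35.5% lower). The controls themselves differed in NOTCH1 and HES1, 2 of 6 genes, where 54.2% of all genes were called (28.7% higher and 25.4% lower in DMSO).

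The mixes were compared directly to see how far each target's effect depended on them. YAP/TAZ mixes 1 and 2 differed in 4 of the 5 genes other than NOTCH3 (background 65.7%, with 30.9% higher and 34.8% lower), in NOTCH2 by 1.43 (SE 0.0519, limma adjusted p = 1.99e-15), HES1 by 1.03, JAG1 by 0.84 and NOTCH1 by 0.78, each higher with mix 1. NOTCH3, at -0.40, entered testing only through mix 2 and is not counted here. BRD mixes A and B differed in the same 4 genes and in NOTCH3 (background 50.0%, with 25.7% higher and 24.3% lower), with HES1 (-2.92, SE 0.105, limma adjusted p = 6.31e-15) and JAG1 (-1.33, limma adjusted p = 1.71e-14) lower with mix A, and NOTCH1 (0.95), NOTCH2 (0.53) and NOTCH3 (0.38) higher. The NOTCH3 difference between BRD mixes did not pass with DESeq2 (adjusted p = 0.129), with a pseudocount of 4, or without any 1 of the 4 libraries (limma adjusted p from 0.0552 to 0.171). For HES1, 0.00731% of the tested genes had a lower difference between BRD mixes. The siRNA targets differed less: YAP1 by 0.22 (limma adjusted p = 0.00748) and WWTR1, the gene of TAZ, by 0.33 (limma adjusted p = 0.000162), both lower with mix 2, and BRD2 by 0.24 (limma adjusted p = 0.00373), lower with mix B. BRD3 differed by 0.02 (95% interval -0.16 to 0.20, limma adjusted p = 0.895). The part of these differences in the members' values was not tested.

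YAP/TAZ siRNA was also set against BRD siRNA, where control siRNA plays no part. The YAP/TAZ libraries were harvested at 48 h and the BRD libraries at 72 h, so target and time cannot be told apart here. All 6 genes passed (background 81.3%, with 41.1% higher and 40.3% lower). NOTCH3 is among them, but it entered testing only through YAP/TAZ mix 2, so its call is no support. NOTCH2 was lower with YAP/TAZ siRNA (-1.20, SE 0.0367, limma adjusted p = 2.71e-17), and JAG2 (0.96, limma adjusted p = 1.94e-08) and HES1 (0.80, limma adjusted p = 2.36e-09) were higher. For HES1 this rests on BRD mix A (3.50 scaled RPM), since BRD mix B (33.1) lay above both YAP/TAZ mixes (29.9 and 14.2). The smaller differences in NOTCH1 (-0.27), NOTCH3 (0.26) and JAG1 (-0.16) depended on the scaling or on single libraries, and that of JAG1 turned to 0.0212 with quantile normalization and 0.0140 with plain RPM scaling. For JAG1 and NOTCH1 these are also differences between means of mixes that differed. JAG1 stood at 288 and 161 with YAP/TAZ mixes 1 and 2, and at 151 and 382 with BRD mixes A and B. For NOTCH1 the same 4 groups stood at 41.7, 23.8, 53.7 and 27.1.

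The JQ1 effect was compared with each knockdown effect, to ask where blocking BET proteins and lowering a target gave different changes, although times differ. Against the BRD siRNA effect, 3 of 6 genes passed (background 60.1%, with 30.2% higher and 29.9% lower): JAG2 (2.29, SE 0.188, limma adjusted p = 2.18e-09) higher, and NOTCH2 (-0.58) and JAG1 (-0.25) lower with JQ1. The JAG1 difference was lost with quantile normalization (-0.02, limma adjusted p = 0.816), and it is against a mean of mixes that differed, since JQ1 changed JAG1 by -0.92, BRD mix A by -1.34 and BRD mix B by 0.00. For HES1 the difference was -0.07 (95% interval -0.36 to 0.22, limma adjusted p = 0.677), which sets JQ1 against the mean of 2 mixes that moved HES1 opposite ways. Against the YAP/TAZ siRNA effect, 3 of 6 passed (background 63.3%, with 30.9% higher and 32.4% lower): JAG2 (1.33, limma adjusted p = 3.22e-06) and NOTCH2 (0.63) higher, and HES1 (-0.88, limma adjusted p = 1.33e-05) lower with JQ1. The NOTCH2 difference rests on mix 2, since NOTCH2 changed by 0.07 with JQ1, 0.16 with YAP/TAZ mix 1 and -1.28 with mix 2. The HES1 difference is against a mean of mixes that moved HES1 opposite ways, 0.39 with mix 1 and -0.64 with mix 2, beside -0.9995 with JQ1. The JAG1 difference there was -0.09 (95% interval -0.23 to 0.05, limma adjusted p = 0.24), and it passed with plain RPM scaling (-0.21).

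Other genes of the pathway came from a written list of 74, of which 63 were in the table and all were tested. With YAP/TAZ siRNA 35 rose and 18 fell (84.1% called, median log2 fold change 0.25 against 0.07 over all tested genes). With BRD siRNA 27 rose and 20 fell (74.6% called, median 0.10 against 0.00), and with JQ1 27 rose and 23 fell (79.4% called, median 0.12 against 0.01). Over all tested genes, 43.1% rose and 35.9% fell with YAP/TAZ siRNA, 37.6% and 37.6% with BRD siRNA, and 37.6% and 36.3% with JQ1.

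NOTCH4 and the Delta ligand DLL4 were scarce. NOTCH4 was at 1.91 ± 0.235 (SD, n = 2) in control siRNA and 3.82 ± 0.602 with YAP/TAZ mix 2 (0.72, limma adjusted p = 6.13e-05), where mix 1 did not pass (0.06, limma adjusted p = 0.701). DLL4, known from endothelium, was at 0.367 ± 0.168 in DMSO and 2.07 ± 0.653 with JQ1 (1.15, limma adjusted p = 3.57e-06), and at 2.12 ± 0.520 with BRD mix B but 0.216 ± 0.171 with mix A. MFAP2, a microfibril protein that can bind Jagged ligands, fell with JQ1 (-2.20, SE 0.0985, limma adjusted p = 3.17e-14), from 7.83 to 0.920 scaled RPM. DLK2, a non-canonical Delta-like protein, was at 8.10 in control siRNA, fell with BRD siRNA (-1.31, limma adjusted p = 1.31e-09) and rose with JQ1 (0.74, limma adjusted p = 3.52e-05). DNER, another non-canonical ligand, rose with JQ1 to 9.32 scaled RPM (0.99, limma adjusted p = 1.44e-07). DLL1 and DLL3 are not rows of the table and were not analysed here.

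Among the 10 genes of receptor glycosylation and maturation, 4 rose and 4 fell with YAP/TAZ siRNA, beside 43.1% and 35.9% of all genes. LFNG, a Fringe enzyme that adds sugar to Notch and alters which ligands it answers, rose most by the moderated statistic. It was at 78.1 ± 11.3 (SD, n = 2) in control siRNA, 236 ± 4.80 with YAP/TAZ mix 1 and 485 ± 18.3 with mix 2 (2.11 over both, SE 0.0789, limma adjusted p = 1.09e-15). RFNG, another Fringe, rose by 0.92 (limma adjusted p = 2.88e-10). LFNG was lower in DMSO (22.7 ± 2.49) than in control siRNA, and JQ1 raised it to 32.1 ± 4.50 (0.48, limma adjusted p = 7.94e-05). Over both BRD mixes it changed by -0.36 (limma adjusted p = 0.000312), and the 2 BRD levels were 87.5 with mix A, which did not pass alone, and 41.3 with mix B. EOGT, which adds another sugar to Notch, fell with JQ1 (-1.05, limma adjusted p = 2.29e-10).

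Of 8 genes of receptor cleavage, 5 rose and 3 fell with YAP/TAZ siRNA, 6 rose and 1 fell with BRD siRNA, and 4 rose and 1 fell with JQ1, beside 43.1% and 35.9%, 37.6% and 37.6%, and 37.6% and 36.3% of all genes. APH1A, a γ-secretase subunit, fell with BRD siRNA (-0.73, limma adjusted p = 2.4e-11) and with JQ1 (-0.77, limma adjusted p = 1.05e-10). ADAM17, a protease that sheds membrane proteins, rose with BRD siRNA (0.75, limma adjusted p = 5.52e-11). Of 12 genes of ubiquitination and endocytosis, MIB1, a ubiquitin ligase that activates Notch ligands, rose with BRD siRNA (0.56) and JQ1 (0.74, limma adjusted p = 1.12e-10), while NEURL1B, another such ligase, fell with JQ1 (-1.16, limma adjusted p = 2.33e-08).

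RBPJ, the DNA-binding partner of Notch, was at 161 scaled RPM in control siRNA and 207 in DMSO. It fell with JQ1 (-0.36, limma adjusted p = 3.14e-05), and the BRD mixes moved it apart, to 245 with mix A (0.61, limma adjusted p = 2.3e-08) and 103 with mix B (-0.64, limma adjusted p = 1.1e-08). RBPJ and HES1 thus differed between the BRD mixes in opposite directions (1.25 and -2.92 for mix A minus mix B). MAML3, a Mastermind co-activator, rose with YAP/TAZ siRNA (0.78), BRD siRNA (0.96) and JQ1 (0.41), each past the threshold, but it was also lower in DMSO than in control siRNA (-0.78, limma adjusted p = 1.02e-06). Of 13 corepressor genes, TLE3, a Groucho corepressor, rose with YAP/TAZ siRNA (1.34, limma adjusted p = 8.76e-13) and fell with BRD siRNA (-0.89) and JQ1 (-0.81), though it was also lower in DMSO (26.4 scaled RPM) than in control siRNA (45.1) and the BRD mixes stood at 26.8 and 21.3, and CTBP2 fell with BRD siRNA (-0.99, limma adjusted p = 6.97e-13).

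With JQ1, where HES1 fell, 4 of the 6 other genes of the list of HES and HEY families and feedback rose and 0 fell (median 1.01), beside 37.6% and 36.3% of all genes. HES6, a family member known to counteract HES1, went from 3.60 ± 0.323 (SD, n = 2) in DMSO to 17.0 ± 0.648 (1.97, SE 0.129, limma adjusted p = 1.47e-11). HES7, known from the segmentation clock, went from 0.528 ± 0.151 to 3.32 ± 0.614 (1.496, limma adjusted p = 6.37e-09). HES4 rose with JQ1 (1.19, limma adjusted p = 0.000197), and with BRD mix B (1.17) but not with mix A (-0.06, limma adjusted p = 0.842). The rises were not limited to JQ1. Over both YAP/TAZ mixes, where HES1 did not pass, 4 of the 6 rose and 1 fell (median 0.45), beside 43.1% and 35.9% of all genes. HES7 (0.94, limma adjusted p = 6.57e-07) and HES2 (0.92, limma adjusted p = 6.23e-06) were among those that rose. Over both BRD mixes 2 of the 6 rose and 0 fell (median 0.20), beside 37.6% and 37.6%. HEY1, a repressor that acts downstream of Notch in vessels, was at 2.67 ± 0.0723 with YAP/TAZ mix 2 against 0.784 ± 0.172 in control siRNA (1.04, limma adjusted p = 8.62e-06), where HES1 fell. Between the BRD mixes HES4 (-1.23, limma adjusted p = 0.000289) and HES7 (-0.46, limma adjusted p = 0.0112) were lower with mix A, as HES1 was, and HES6 was higher (0.47, limma adjusted p = 0.00449). NRARP, a feedback inhibitor induced by Notch, passed in none of the 3 main comparisons, with -0.22 for YAP/TAZ siRNA, 0.18 for BRD siRNA and 0.26 for JQ1 (limma adjusted p = 0.134, 0.205 and 0.128).

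**Figure D4:**
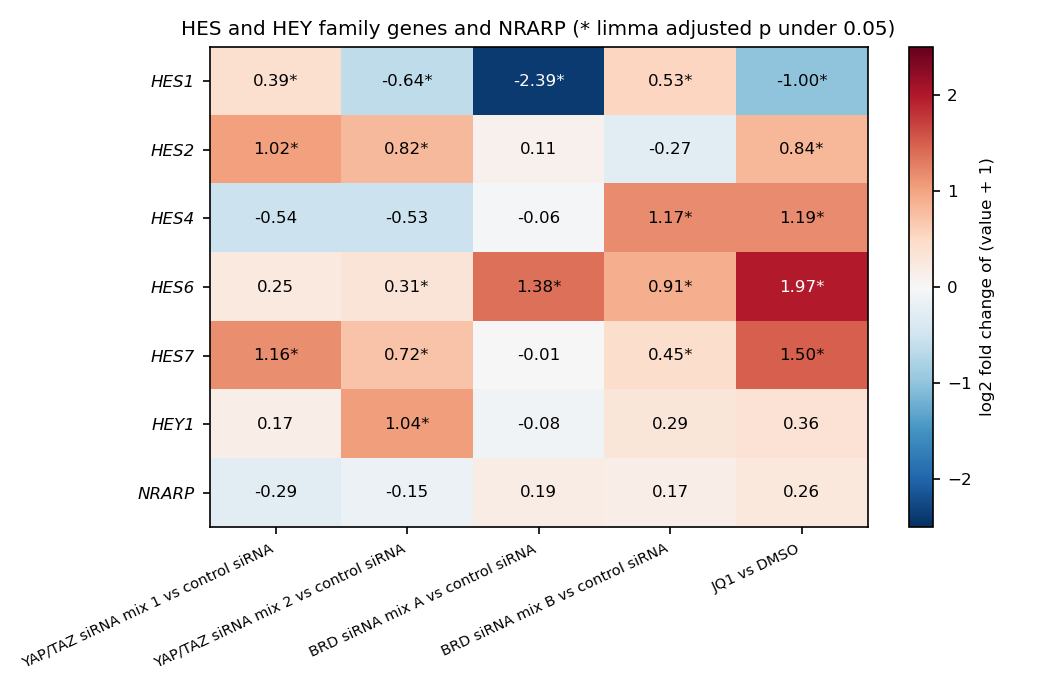
Log2 fold change of (value + 1) of HES1, 5 other HES and HEY genes and NRARP (rows) with each siRNA mix against control siRNA and with JQ1 against DMSO (columns), with an asterisk where the limma adjusted p is under 0.05. With JQ1, HES1 is at -0.9995 while HES6 is at 1.97 and HES7 at 1.496.

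Across the 14 libraries, the genes whose log2 levels were most like those of each member were listed as a description. The libraries come in 7 pairs of one treatment, so the points are not independent. HES1 was most like TBCEL (Pearson r 0.92, Spearman rho 0.84), CASP4 (0.92, 0.75) and ZNF486 (0.92, 0.85). NOTCH2 was most like HERPUD2 (r 0.99, rho 0.89) and LNPEP (0.98, 0.92), NOTCH1 most like ARHGAP23 (0.95, 0.96), JAG1 most like OTUD4 (0.97, 0.90), and JAG2 most like SYP (0.97, 0.93). For NOTCH3 the nearest gene was PGLS (0.96, 0.98), with the caveat of its few reads. Among the members themselves the highest r was between JAG1 and HES1 (0.78, rho 0.79) and the lowest between NOTCH3 and JAG1 (-0.84, rho -0.85).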

How the data were processed

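RNA-seq of 14 MDA-MB-231 libraries was analysed, with groups and replicate numbers from the sample titles. Libraries were made from total RNA with a stranded, ribosomal-depletion kit, per the labels' protocols. Per the submitters' processing notes, the build was hg19 and the tools included TopHat2 2.0.5 and HTSeq 0.6.0, beside CASAVA 1.8.4, R 3.0.0 and edgeR. The sources used here do not state their order, the annotation, the strand setting or the filter. The deposited values are a scaled signal: the columns sum to 903627 to 1098052, and dividing by the smallest step of a library gave whole read numbers for 100% of values (tolerance 0.01). The plan had assumed CPM.

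Values were transformed to log2(value + 1), and 13674 genes with at least 1 in at least 2 libraries were fitted with limma 3.58.1 (R 4.3.3), 1 term per group, trended variance, two-sided tests, and Benjamini-Hochberg adjustment over all genes at 0.05. The script was tested on simulated data. Replicates of each group differed by more than sampling noise (chi-square per gene 3.45 to 10.7). edgeR 4.0.16 and DESeq2 1.42.0 ran on recovered reads as alternatives. Intervals on reads are exact binomial at 95%. The members, lists and rule for named genes (all members, per role the 2 genes of largest moderated statistic, Notch receptors, ligands, HES and HEY genes, and the 3 genes most like each member) were chosen with earlier results of these data known. Further genes, among them NOTCH2NL, RBPJ and some values of TLE3, were named after their values were seen. Exon lengths came from GENCODE v29 and promoters from RefSeq on GRCh38.p14, while the reads were aligned to hg19.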

Additional observations from a re-analysis of the deposited data

Results flagged for a closer look

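The effect of siRNA on several members differed between the 2 pools against one target, by the direct limma test of pool against pool, which 65.7% of all genes passed for YAP/TAZ siRNA and 50.0% for BRD siRNA. For YAP/TAZ siRNA, mix 1 minus mix 2 was 1.43 in NOTCH2 (adjusted p = 1.99e-15), 1.03 in HES1 (2.75e-08), 0.84 in JAG1 (8.81e-12), 0.78 in NOTCH1 (2.4e-07) and -0.40 in NOTCH3 (0.0179). For BRD siRNA, mix A minus mix B was -2.92 in HES1 (adjusted p = 6.31e-15), -1.33 in JAG1 (1.71e-14), 0.95 in NOTCH1 (3.01e-08), 0.53 in NOTCH2 (3.13e-08) and 0.38 in NOTCH3 (0.0334). NOTCH3 entered testing only through YAP/TAZ mix 2, so its difference between those mixes is no support, and the call was lost without YAP/TAZ mix 1 replicate 1 (-0.24, limma adjusted p = 0.234). Its difference between BRD mixes was lost without each of the 4 libraries in turn (limma adjusted p from 0.0552 to 0.171). JAG2 passed in neither. All differences are on the log2(value + 1) scale with 2 libraries per mix, and limma pools the spread over all 14 libraries.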

How the results depend on the processing

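Of 1034 member values under the alternatives, 968 kept their direction and side of the threshold, 22 lost and 21 gained a call, and 23 changed sign, of which those named next had a call in the original or the alternative. Against DMSO in place of control siRNA, NOTCH1 turned to -0.39 (YAP/TAZ) and -0.12 (BRD), and HES1 to 0.30 (YAP/TAZ). With YAP/TAZ mix 1 alone NOTCH2 was at 0.16 and HES1 at 0.39, and with mix 2 alone NOTCH1 was at -0.10. With BRD mix B alone HES1 was at 0.53, and 2 of 6 members passed against 5. JAG1 between YAP/TAZ and BRD siRNA turned to 0.0212 (quantile) and 0.0140 (plain RPM). Without a call in either, signs also changed with plain RPM scaling for NOTCH2 with JQ1 (-0.0025) and NOTCH1 in the JQ1 against the YAP/TAZ effect (-0.0826), with quantile normalization for JAG2 between YAP/TAZ mixes (0.0239), and with upper-quartile scaling for HES1 in the JQ1 against the BRD effect (0.0031). Without 1 library, the ranges that crossed 0 were -0.0763 to 0.0151 (JAG1, DMSO against control siRNA), -0.1865 to 0.1030 (JAG2 between YAP/TAZ mixes), -0.2581 to 0.1150 and -0.1969 to 0.0112 (HES1 and NOTCH3, JQ1 against BRD effect), and -0.0620 to 0.1256 (NOTCH1, JQ1 against YAP/TAZ effect). For DMSO against control siRNA, 4 members passed with quantile normalization and 5 with plain RPM scaling, against 2. For the JQ1 against the YAP/TAZ effect, 5 passed with plain RPM scaling against 3, among them NOTCH3, which entered testing only through YAP/TAZ mix 2. That scaling moved the median of all genes from 0.00 to 0.16 and the share of higher calls from 50.5% to 63.1% between YAP/TAZ and BRD siRNA, and that share from 53.1% to 34.5% for DMSO against control siRNA. The causes were not tested. edgeR on recovered reads called 10616, 10160 and 10330 genes for YAP/TAZ siRNA, BRD siRNA and JQ1, against 10793, 10279 and 10104. Without 1 library, 4 to 5 members passed for YAP/TAZ siRNA and for JQ1, and 5 for BRD siRNA. Without either mix 2 library NOTCH3 was not tested, and likewise with the filter at 5. The replicate numbers did not pair the libraries: replicate differences correlated between groups at -0.373 to 0.254, over 0.1 in 7 of 21 pairs. A replicate block called 10799, 10276 and 10117 genes in the main comparisons and changed no member's call. Few reads limit NOTCH3 and JAG2.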
